A study of Mus musculus with 12 samples.

Results

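The genes described here are those of mature oligodendrocytes and of the myelin they make, followed in the contused spinal cord of mice that lack one of the cytokines interleukin-1 alpha and interleukin-1 beta. The list held 36 genes, chosen by symbol, and each was read at the brightest probe set that the platform's annotation gives to that symbol alone. This found 35 of the 36 among 19938 genes. Evi2a shares its probe set with Evi2 and Evi2b and was not analysed here. Each of the 35 genes had a single such probe set, so no choice between probe sets was needed.

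The groups were Il1a KO mice, Il1b KO mice and wild-type C57BL/6 mice (WT), with 4 arrays each and C57BL/6 as the background strain of all. Every mouse, WT included, had received a spinal contusion of 50 kdyn. A 6 mm piece of cord centred on the lesion was taken after 24 h from animals aged 8 to 12 weeks. Replicates are described as biological in the labels, which give no animal, sex, knockout construct or batch, so a p-value here measures the spread between these arrays. Uninjured cord was not analysed here, so no value below measures the effect of the injury itself.

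Oligodendrocytes wrap axons of the central nervous system in a lipid-rich sheath whose layers are held together by a small set of abundant proteins. A differentiating precursor switches on these genes under transcription factors such as Olig2, Sox10 and Myrf, and passes through a short-lived newly formed stage marked by Enpp6 and Bcas1. Contusion kills oligodendrocytes near the lesion within the first days, and interleukin-1 is released there by injured cells, microglia and invading leukocytes.

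The promoter sequences available for the genes are shown first, since many myelin genes are known to share a regulator, Myrf. RefSeq windows of GRCm38.p6, from 250 bases before to 50 bases after a start site, existed for 26 of the 35 genes. They were searched on both strands for CTGGCAC or CTGGTAC, the core word bound by Myrf, the transcription factor that switches on myelin genes. The word was found in 7 of 26 genes (26.9%), against 8.1% of all 27025 genes with such a window. ACAAAG or ACAATG, core words of the SOX family, were found in 10 of 26 (38.5%), against 31.7% of all. The core promoter word TATAAA was found in 1 of 26 (3.8%), against 15.7%, and a word bound by NF-kB, a factor downstream of interleukin-1, in 0 of 26, against 1.9%. A match is a word in the sequence and not a measured binding site. The Myrf words did not overlap the SOX words in the windows printed below. The 8 sites of the Myrf word in these 7 genes follow, each written along the gene's own strand, with the word in capitals and up to 10 bases on each side.
Cnp, chr11:100574848-100574874, plus strand: ccgctgcttcCTGGCACtcaggtttcc
Hapln2, chr3:88027639-88027665, minus strand: ccggtggtttGTGCCAGcctgtcctgc
Mag, chr7:30914915-30914941, minus strand: caggcggcccCTGGCACccagggggca
Mog, chr17:37023465-37023491, minus strand: gaaatgcccaGTACCAGgcagccactg
Nipal4, chr11:46166543-46166569, minus strand: tctcttgcccCTGGCACgggcggatga
Nipal4, chr11:46166518-46166544, minus strand: gactcggtggCTGGCACccagctgcgg
Opalin, chr19:41077064-41077087, minus strand: aagacctgcaGTGCCAGtgagaga
Tmem125, chr4:118543710-118543736, minus strand: cccaccttgcGTGCCAGgcaacctctc

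The whole window is given for the pair of genes on which the comparisons turn. Elovl7, on chromosome 13, was the only gene of the group to pass the test, and Opalin, on chromosome 19, had the largest difference in the Il1a KO. Capitals mark the Myrf and SOX words, of which the Elovl7 window held 0 and the Opalin window 3.
Elovl7, chr13:108214154-108214453, plus strand: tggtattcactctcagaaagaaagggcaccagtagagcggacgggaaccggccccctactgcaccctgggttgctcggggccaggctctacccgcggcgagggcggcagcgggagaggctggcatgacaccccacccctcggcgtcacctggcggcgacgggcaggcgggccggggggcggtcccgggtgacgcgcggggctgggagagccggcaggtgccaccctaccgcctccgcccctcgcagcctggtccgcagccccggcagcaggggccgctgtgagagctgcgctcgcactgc
Opalin, chr19:41077064-41077363, minus strand: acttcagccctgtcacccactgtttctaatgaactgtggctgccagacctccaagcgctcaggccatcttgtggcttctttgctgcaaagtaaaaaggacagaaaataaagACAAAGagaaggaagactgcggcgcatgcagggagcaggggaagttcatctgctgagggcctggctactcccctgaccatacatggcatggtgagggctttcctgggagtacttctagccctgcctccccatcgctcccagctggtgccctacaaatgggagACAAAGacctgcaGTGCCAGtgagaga

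All values below are the authors' log2 values, on which 1 unit is a doubling. The targeted genes followed the labels: Il1a was at 4.87 to 5.03 in Il1a KO arrays and Il1b at 6.19 to 6.63 in Il1b KO arrays, against 5.74 to 6.22 and 7.68 to 8.06 in WT arrays. Il1a was low in the Il1b KO too, at 4.85 to 5.31 (log2 fold change -0.77, limma adjusted p = 0.0039), while Il1b was at 7.96 to 8.18 in the Il1a KO. Some arrays stood apart. Il1a KO replicate 1 had Xist at 6.47 and the Y-linked Eif2s3y at 9.16, a male pattern. The other 11 arrays had 11.89 to 12.19 and 3.65 to 3.94, a female pattern, so the Il1a KO group was mixed in these genes. The labels give no sex, and the part of sex in the values below was not tested. WT replicate 1 had the most extreme score on the first principal component, which held 33% of the variance (-20.17, against -6.58 to 13.63 elsewhere). Counts that lead a comparison below are also given without Il1a KO replicate 1 and WT replicate 1, a choice made after the data were seen. WT replicate 3 was the most extreme on the second component, with 15.3% of the variance (-13.78, against -5.59 to 7.96 elsewhere). Its median deviation from the 12-array means of the 35 genes was also the lowest (-0.11). The leading counts are not given without it. In bulk cord, fewer cells of a type and less RNA per cell cannot be told apart.

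The defining myelin genes were well measured in every group. Mbp, the basic protein that holds the inner faces of the membrane together, was at 12.80 to 12.89 in Il1a KO, 12.80 to 12.90 in Il1b KO and 12.75 to 12.78 in WT arrays. Neither knockout overlapped with WT, and the differences did not pass the test (log2 fold change 0.09 in the Il1a KO and 0.10 in the Il1b KO, limma adjusted p = 0.531 and 0.277). Over the 35 genes the group mean ran from 8.44 for Tmem125 to 13.4 for Trf in WT, so none lay near the lowest values of the arrays (2.97).

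**Figure D1:**
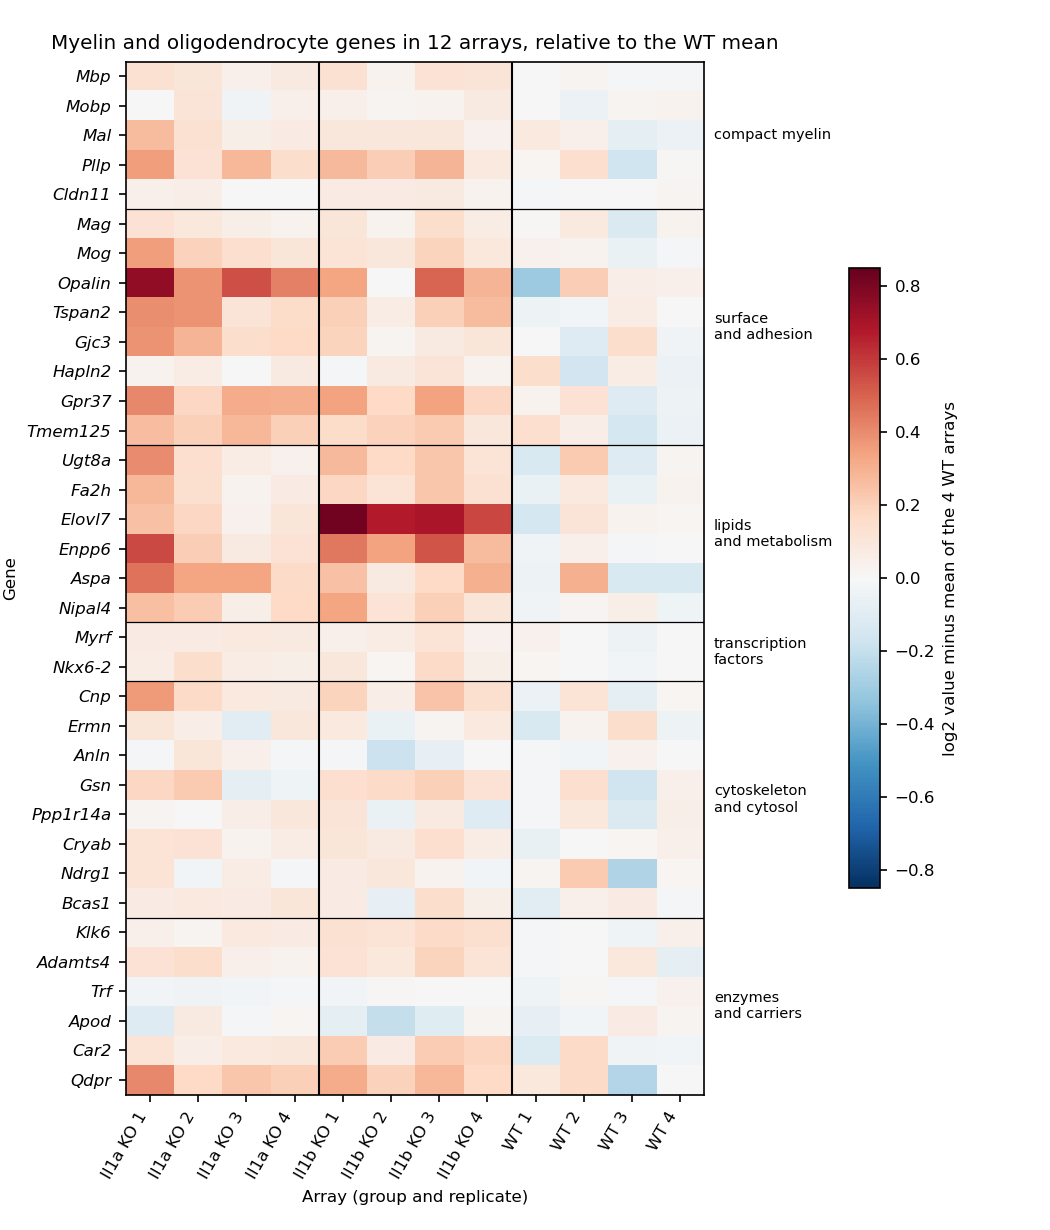
Heat map of 35 genes (rows, grouped by role) in 12 arrays (columns), coloured by the log2 value minus the mean of the 4 WT arrays. Il1a KO and Il1b KO columns are mostly above the WT mean (30 to 33 of 35 genes in every knockout array, against 45.8% to 59.1% of all genes), with Opalin strongest in the Il1a KO and Elovl7 in the Il1b KO. WT arrays, which make up that mean, are above it in 12 to 27 genes, replicate 2 in 27.

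Il1a KO cords were set against WT cords to see which of these genes differ when interleukin-1 alpha is missing. The genes lay slightly above WT almost throughout: 33 of 35 had a positive log2 fold change, against 50.2% of all genes. Their median log2 fold change was 0.09, against 0.0003 over all genes. Without the 12 genes that other cells of the cord also express, among them Enpp6, Qdpr, Trf and Apod, it was 0.14. None passed the test over all genes (0 of 35, against 0.171% of all genes by limma with Benjamini-Hochberg adjustment). At an unadjusted p under 0.05, 16 of 35 were higher (4.54% of all genes) and 0 lower (3.77%). The 4 Il1a KO arrays lay above all 4 WT arrays in 11 genes, or 31.4%, against 2.87% of all genes, and below them in 0, against 2.19%. Genes of one cell type vary together from array to array, so these counts are not 35 separate observations.

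Array choice mattered for part of this. Without Il1a KO replicate 1, 11 genes were higher at an unadjusted p under 0.05 (3.04% of all genes), 34 of 35 had a positive log2 fold change and the median was 0.08. Without WT replicate 1 the count was 14 (6.42%), and without both it was 10 (5.2%), with a median of 0.07 against 0.015 over all genes. The arrays did not overlap in 11 higher and 0 lower genes without Il1a KO replicate 1 (3.57% and 2.75% of all genes), in 12 and 1 without WT replicate 1 (6.02% and 4.93%), and in 12 and 1 without both (8.59% and 6.04%). The genes called at an adjusted p without Il1a KO replicate 1, without WT replicate 1 and without both numbered 0, 1 and 0. The one was Tmem125 without WT replicate 1 (limma adjusted p = 0.0493). Of all 19938 genes, 23, 49 and 23 were called in these settings.

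Opalin, a glycoprotein of the oligodendrocyte surface that appears late in differentiation, showed the widest difference of the group in the Il1a KO. Its values were 9.57, 9.19, 9.36 and 9.24 in Il1a KO arrays and 9.15, 8.82, 9.31 and 9.10 in Il1b KO arrays, against 8.51, 9.02, 8.87 and 8.85 in WT arrays. All Il1a KO arrays lay above all WT arrays, while Il1b KO and WT overlapped. The mean was 9.34 ± 0.167 in the Il1a KO and 8.81 ± 0.217 in WT (SD, n = 4 each), a 1.44-fold difference (log2 fold change 0.53, SE 0.12) that did not pass the test (limma adjusted p = 0.16). In the Il1b KO the mean was 9.09 ± 0.206 (SD, n = 4), with a log2 fold change of 0.28 (limma adjusted p = 0.346). WT replicate 1 was the lowest array, and without it the log2 fold changes were 0.43 in the Il1a KO and 0.18 in the Il1b KO.

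Aspa, the enzyme that splits N-acetylaspartate and so frees acetate for lipid synthesis, came next in the Il1a KO. It was at 10.41, 10.28, 10.28 and 10.11 in Il1a KO arrays and at 10.19, 10.02, 10.11 and 10.24 in Il1b KO arrays, against 9.90, 10.25, 9.81 and 9.81 in WT arrays. A single WT array, replicate 2, lay within the Il1a KO range and just above the Il1b KO range. The log2 fold change was 0.33 in the Il1a KO (SE 0.0935, limma adjusted p = 0.306) and 0.20 in the Il1b KO (adjusted p = 0.394), and neither passed. Without WT replicate 2 these were 0.43, which passed (adjusted p = 0.0447), and 0.30.

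Gpr37, a receptor that restrains oligodendrocyte differentiation, was nearly as far above WT in one knockout as in the other. Its values were 11.13, 10.90, 11.04 and 11.04 in Il1a KO arrays and 11.07, 10.90, 11.07 and 10.90 in Il1b KO arrays, against 10.75, 10.85, 10.62 and 10.68 in WT arrays. No array of either knockout lay within the WT range. The log2 fold change was 0.30 in the Il1a KO (SE 0.0645, limma adjusted p = 0.129) and 0.26 in the Il1b KO (adjusted p = 0.0999), and neither passed the threshold of 0.05.

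At the other end stood Trf, the iron carrier transferrin, and Apod, a lipid-binding secreted protein that fibroblasts and pericytes also make. Trf was at 13.42, 13.41, 13.42 and 13.43 in Il1a KO and 13.42, 13.45, 13.45 and 13.44 in Il1b KO arrays, against 13.40, 13.46, 13.44 and 13.48 in WT arrays (log2 fold changes -0.02 and -0.0036). Apod was at 13.06, 13.24, 13.15 and 13.18 in Il1a KO and 13.09, 12.96, 13.06 and 13.19 in Il1b KO arrays, against 13.10, 13.14, 13.24 and 13.19 in WT arrays (log2 fold changes -0.01 and -0.09). The groups overlapped in both genes. Their 95% intervals were -0.09 to 0.05 for Trf and -0.13 to 0.11 for Apod in the Il1a KO, and -0.07 to 0.07 and -0.21 to 0.03 in the Il1b KO. Cldn11, which forms the tight junctions between myelin layers, had 12.82, 12.83, 12.78 and 12.77 in Il1a KO and 12.84, 12.85, 12.85 and 12.80 in Il1b KO arrays, against 12.76, 12.77, 12.77 and 12.80 in WT arrays. Its log2 fold changes were 0.03 and 0.06 (limma adjusted p = 0.933 and 0.465). Its Il1b KO arrays all lay above WT, the closest pair being 12.8022 and 12.8015.

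**Figure D2:**
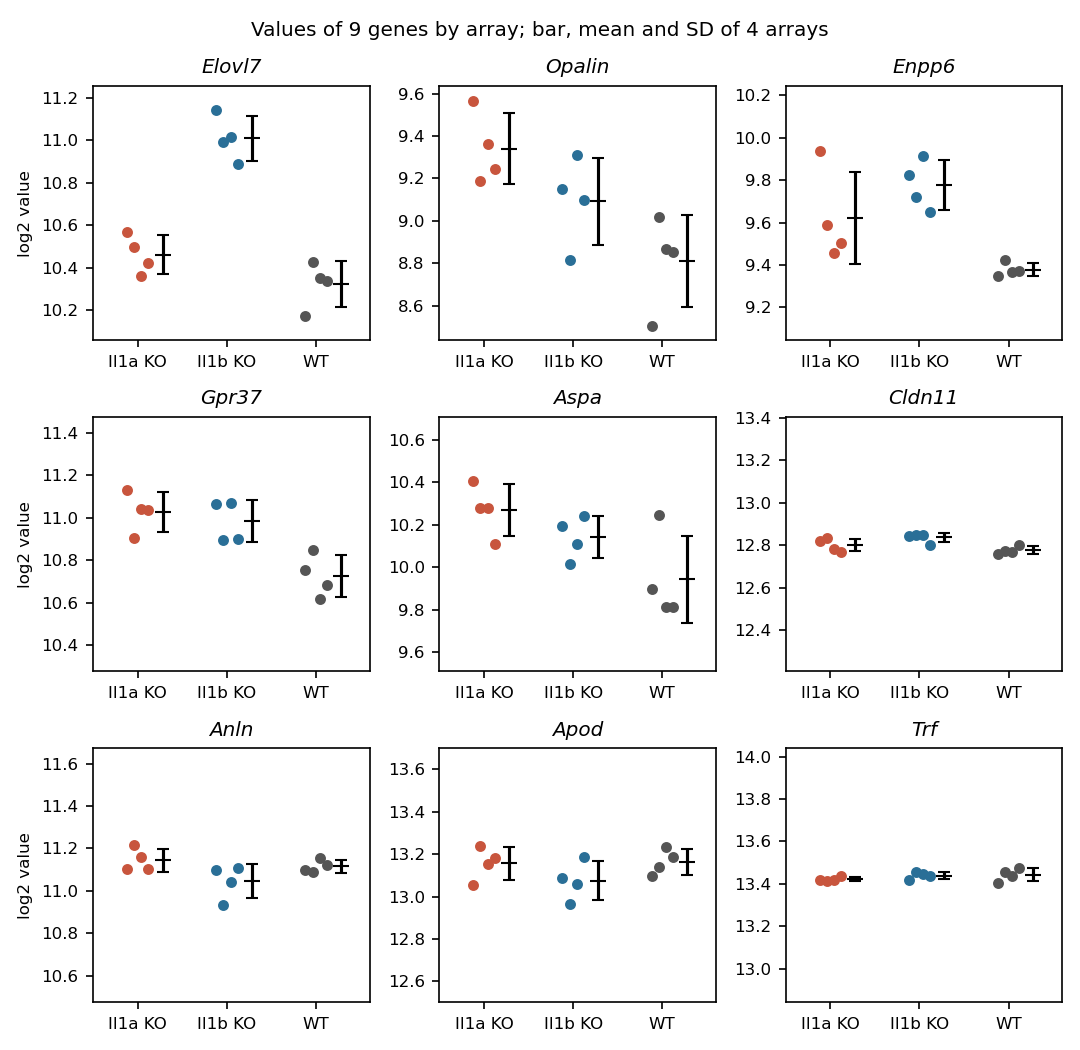
Log2 values (vertical axis, the same span in each panel) of 9 genes in the 4 arrays of the Il1a KO, the Il1b KO and WT; points are arrays, and bars show the mean and SD. Elovl7 is clear of both other groups in the Il1b KO (10.89 to 11.14), while Trf stays between 13.40 and 13.48 in all 12 arrays.

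Il1b KO cords were set against the same 4 WT arrays, for interleukin-1 beta, so the position of those arrays enters both comparisons. Of the 35 genes, 32 had a positive log2 fold change, against 52% of all genes, with a median of 0.12 against 0.004 over all genes, and 0.12 also without the 12 genes shared with other cells. At an unadjusted p under 0.05, 18 were higher (8.42% of all genes) and 0 lower (4.58%). The groups did not overlap in 14 genes, or 40%, all higher in the Il1b KO, against 5.06% of all genes higher and 1.94% lower. Some of these margins were near ties between the lowest Il1b KO and the highest WT array. They were 9.5284 in both for Nkx6-2, 10.9544 and 10.9543 for Tspan2, 12.8022 and 12.8015 for Cldn11, and 9.8978 and 9.896 for Adamts4. By limma's adjusted p, 1 gene passed (2.86% of the 35, against 0.813% of all genes). Without Il1a KO replicate 1, which enters through the shared estimate of the spread, 2 passed (Elovl7 and Enpp6), against 147 of all 19938 genes. Without WT replicate 1 the count at an unadjusted p was 14 (8.64% of all genes), 30 had a positive log2 fold change and the median was 0.12. Without both arrays it was 16 (8.19%), and the same 2 genes passed, against 139 of all 19938 genes. The arrays did not overlap in 16 higher and 0 lower genes without WT replicate 1 (7.65% and 3.2% of all genes).

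The gene that passed was Elovl7, an elongase that lengthens saturated fatty acids, the kind of very long chains in which myelin lipids are rich. Its values in Il1b KO arrays were 11.14, 10.99, 11.02 and 10.89. They were 10.57, 10.50, 10.36 and 10.42 in Il1a KO arrays and 10.17, 10.43, 10.35 and 10.34 in WT arrays. Every Il1b KO array lay above every array of the other groups, which overlapped each other. Elovl7 averaged 11.01 ± 0.105 in the Il1b KO and 10.32 ± 0.109 in WT (SD, n = 4 each), and so rose 1.61-fold (log2 fold change 0.69, 95% interval 0.54 to 0.83, limma adjusted p = 1.11e-04). In the Il1a KO it averaged 10.46 ± 0.0904 (SD, n = 4), a log2 fold change of 0.14 (95% interval -0.0046 to 0.28) that did not pass (limma adjusted p = 0.625).

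Elovl7 lies at chr13:108214326-108287109 (GRCm38.p6), and none of the measured genes beside it passed the test. Of the 20 measured genes nearest to it, 10 on each side, 0 passed in the Il1b KO (limma, lowest adjusted p = 0.242), with log2 fold changes from -0.11 for Gapt to 0.18 for Mier3. The nearest, Ercc8, a DNA repair factor, and Depdc1b, had log2 fold changes of 0.03 and 0.15. Only 0.813% of all genes passed in the Il1b KO, so 0 of 20 cannot show that the neighbours were unchanged. The median of the 20 was 0.04, against 0.004 over all genes. Htr1a, Zswim6, Mier3 and Rab3c were at 0.13, 0.13, 0.18 and 0.08 (SE 0.045, 0.043, 0.061 and 0.036). The lowest, Gapt, Dimt1, Gm27572 and Ndufaf2, were at -0.11, -0.10, -0.10 and -0.10 (SE 0.079, 0.112, 0.059 and 0.053). Elovl7 was also alone among the elongases in passing: in the Il1b KO, Elovl1, Elovl4 and Elovl6 had log2 fold changes of 0.13, 0.13 and 0.11, Elovl5 of -0.01 and Elovl3 of -0.20 (adjusted p from 0.203 to 0.949). Elovl2, which acts on polyunsaturated chains, had a log2 fold change of 0.17 in the Il1b KO (adjusted p = 0.0689) and rose in the Il1a KO (log2 fold change 0.27, limma adjusted p = 0.0108), where its 4 arrays were at 8.52 to 8.58, against 8.22 to 8.35 in WT.

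**Figure D3:**
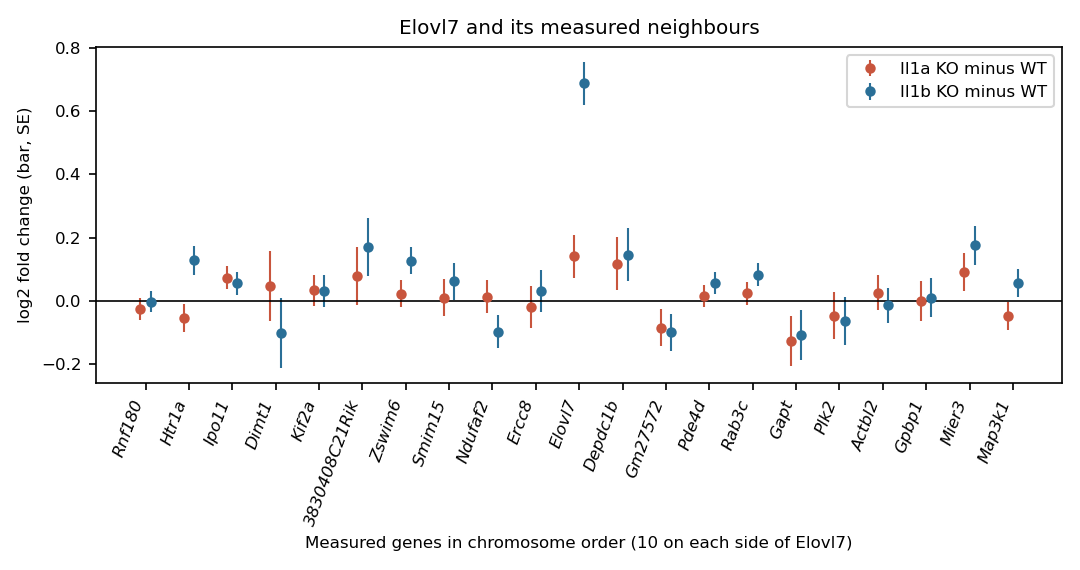
Log2 fold change against WT (vertical axis, bar, SE) of Elovl7 and the 10 measured genes on each side of it in chromosome order (horizontal axis), for the Il1a KO and the Il1b KO. Only Elovl7 in the Il1b KO, at 0.69, leaves the band between -0.13 and 0.18 that holds all 20 neighbours.

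Enpp6, a choline-releasing phosphodiesterase of newly formed oligodendrocytes, was the next gene in the Il1b KO. Its values were 9.94, 9.59, 9.46 and 9.50 in Il1a KO arrays and 9.82, 9.72, 9.91 and 9.65 in Il1b KO arrays, against 9.35, 9.42, 9.37 and 9.37 in WT arrays. The WT arrays were tightly grouped (SD 0.0319) and lay below all 8 knockout arrays. In the Il1b KO the log2 fold change was 0.40 (SE 0.0900, 1.32-fold), just short of the threshold (limma adjusted p = 0.0648). In the Il1a KO it was 0.24 (limma adjusted p = 0.45), and 0.14 without replicate 1, the highest array. Bcas1, another gene of the newly formed stage, was closer to WT, at 10.85 to 10.89 in Il1a KO, 10.71 to 10.94 in Il1b KO and 10.69 to 10.85 in WT arrays (log2 fold changes 0.08 and 0.05).

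Anln, a scaffold of the septin filaments that stabilise myelin, and also of dividing cells, was one of 3 genes with a negative log2 fold change in the Il1b KO, beside Apod and Trf. It was at 11.10, 11.22, 11.16 and 11.10 in Il1a KO arrays and 11.10, 10.93, 11.04 and 11.11 in Il1b KO arrays, against 11.10, 11.09, 11.15 and 11.12 in WT arrays. All groups overlapped, and the log2 fold changes were 0.03 in the Il1a KO and -0.07 in the Il1b KO (limma adjusted p = 0.95 and 0.557).

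Grouped by role, the genes of compact myelin had median log2 fold changes of 0.09 in the Il1a KO and 0.08 in the Il1b KO. Besides Mbp and Cldn11 these were Mobp, a second basic protein, Mal, a raft protein, and Pllp, a related membrane protein. All 5 had positive log2 fold changes in both knockouts, from 0.03 to 0.23 in the Il1a KO and from 0.04 to 0.21 in the Il1b KO, with Pllp the largest in each (limma adjusted p = 0.338 and 0.228). Pllp was at 10.71 to 10.95 in Il1a KO and 10.68 to 10.88 in Il1b KO arrays, against 10.43 to 10.74 in WT arrays. WT replicate 2, at 10.74, was the array that overlapped. Mal had log2 fold changes of 0.13 in the Il1a KO and 0.08 in the Il1b KO, and Mobp 0.03 and 0.04.

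The 8 surface and adhesion genes had a median log2 fold change of 0.24 in the Il1a KO and 0.15 in the Il1b KO, and all 8 were positive in each. They include Opalin and Gpr37. Mog, an immunoglobulin-like protein of the outermost myelin layer, was at 11.71 to 11.96 in Il1a KO and 11.70 to 11.80 in Il1b KO arrays, against 11.55 to 11.65 in WT arrays. Tspan2, a tetraspanin of the differentiating cell, was at 10.9997 to 11.28 in the Il1a KO and 10.95 to 11.16 in the Il1b KO, against 10.85 to 10.95 in WT. Neither gene overlapped with WT in either knockout, with log2 fold changes of 0.20 and 0.26 in the Il1a KO (limma adjusted p = 0.243 and 0.239) and 0.12 and 0.18 in the Il1b KO. For Tspan2 in the Il1b KO the margin was slight, 10.9544 in the lowest array against 10.9543 in the highest WT array. Gjc3, a connexin, was at 11.63 to 11.86 in Il1a KO and 11.50 to 11.66 in Il1b KO arrays, against 11.37 to 11.63 in WT arrays (log2 fold changes 0.25 and 0.10). Tmem125, a membrane protein, had log2 fold changes of 0.24 and 0.17. Mag, the adhesion molecule facing the axon, and Hapln2, a matrix link protein of the nodes, had smaller log2 fold changes, 0.07 and 0.04 in the Il1a KO and 0.09 and 0.05 in the Il1b KO.

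Among the 6 genes of lipids and metabolism all were positive in both knockouts, with medians of 0.17 in the Il1a KO and 0.20 in the Il1b KO. Apart from Elovl7, Enpp6 and Aspa these were Ugt8a, which makes galactosylceramide, Fa2h, which hydroxylates its fatty acids, and Nipal4, a membrane protein related to magnesium transporters. Ugt8a was at 11.34 to 11.71 in Il1a KO and 11.42 to 11.59 in Il1b KO arrays, against 11.18 to 11.53 in WT arrays, where replicate 2 was the highest. Fa2h was at 11.66 to 11.91 and 11.75 to 11.86, against 11.57 to 11.71 in WT, and did not overlap with WT in the Il1b KO (log2 fold change 0.16, limma adjusted p = 0.244). Nipal4 was above all WT arrays (9.65 to 9.73) in both, at 9.74 to 9.94 in the Il1a KO and 9.78 to 10.02 in the Il1b KO, with log2 fold changes of 0.17 and 0.19.

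The transcription factors differed little. Myrf was at 11.23 to 11.24 in Il1a KO and 11.20 to 11.28 in Il1b KO arrays, against 11.12 to 11.20 in WT arrays, and Nkx6-2, a homeodomain repressor of the mature cell, at 9.56 to 9.66 and 9.53 to 9.68, against 9.49 to 9.53. The log2 fold changes lay between 0.06 and 0.08 in both knockouts (limma adjusted p from 0.42 to 0.635). Neither gene overlapped with WT in the Il1a KO.

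The 8 cytoskeletal and cytosolic genes had medians of 0.06 in the Il1a KO and 0.05 in the Il1b KO. Cnp, an enzyme that keeps channels open in the sheath, led in the Il1a KO, at 12.15 to 12.44, with 12.14 to 12.32 in Il1b KO arrays, against 11.99 to 12.19 in WT arrays (log2 fold changes 0.17 and 0.16). Log2 fold changes of Gsn, the actin-severing protein gelsolin, were 0.07 and 0.16, and those of Cryab, a small heat shock protein, 0.08 and 0.10. Ermn, Ppp1r14a and Ndrg1, a gene that also responds to low oxygen, had log2 fold changes of 0.0041 to 0.04 and overlapped with WT, where Ndrg1 ran from 11.43 to 11.91.

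The remaining enzymes and carriers were mixed. Klk6, a secreted protease of oligodendrocytes, was at 12.47 to 12.53 in Il1a KO and 12.57 to 12.62 in Il1b KO arrays, against 12.41 to 12.49 in WT arrays. All Il1b KO arrays lay above all others, with a log2 fold change of 0.14 (limma adjusted p = 0.0976). Car2, a carbonic anhydrase, had log2 fold changes of 0.09 in the Il1a KO and 0.17 in the Il1b KO, and Adamts4, a protease that cuts proteoglycans, 0.09 and 0.13. Qdpr, which regenerates tetrahydrobiopterin, was at 11.57 to 11.81 in Il1a KO and 11.57 to 11.72 in Il1b KO arrays, against 11.15 to 11.56 in WT arrays. It did not overlap with WT in either (log2 fold changes 0.25 and 0.24, limma adjusted p = 0.337 and 0.222). WT replicate 3, at 11.15, was the lowest array.

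**Figure D4:**
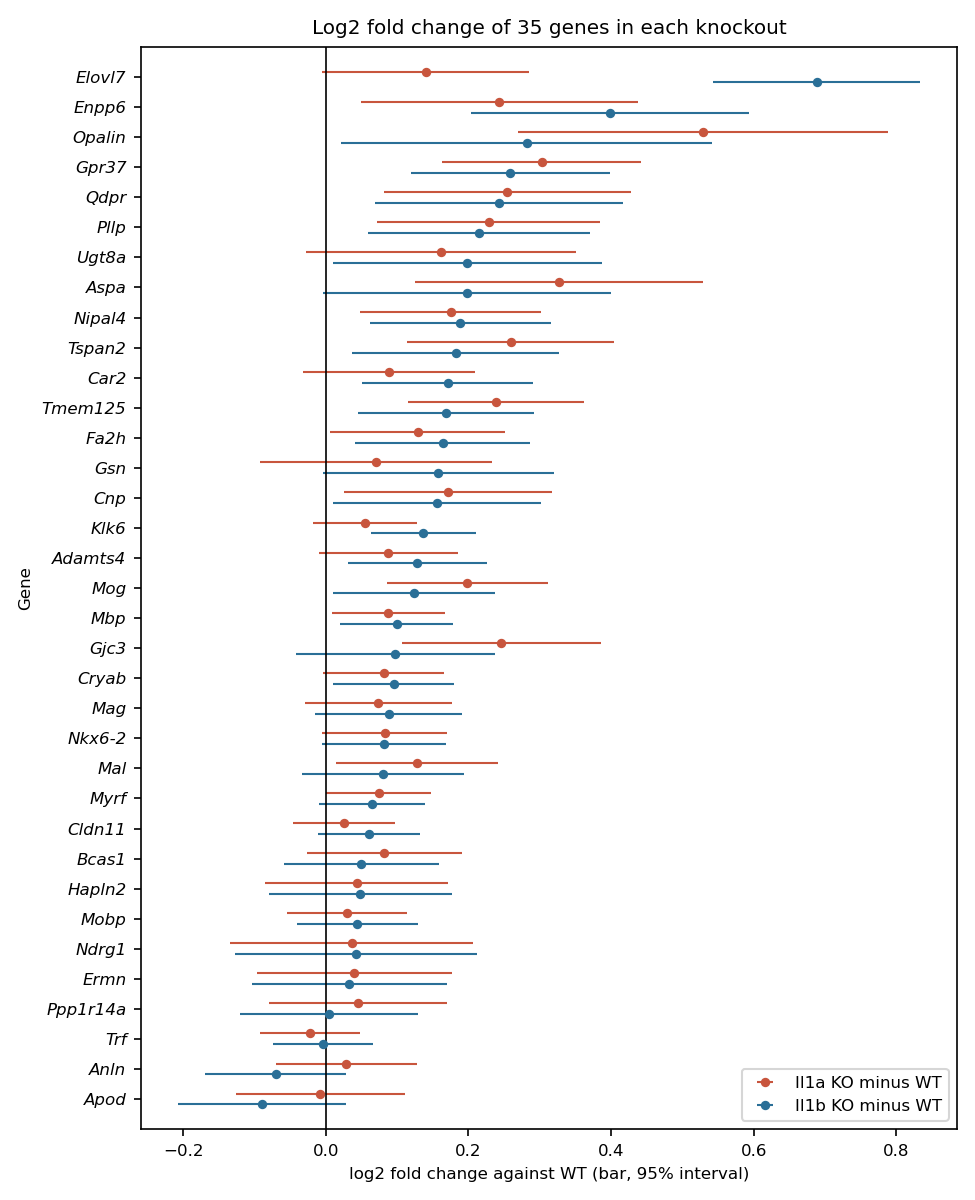
Log2 fold change against WT (horizontal axis) with 95% intervals for 35 genes (vertical axis, ordered by the Il1b KO), for the Il1a KO and the Il1b KO. Most points lie between 0 and 0.3, and Elovl7 in the Il1b KO, at 0.69, is the only gene whose adjusted p passed.

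The direct comparison of the Il1a KO with the Il1b KO, which uses no WT array for its means, asked whether the genes differ between the knockouts. Of the 35 genes, 18 had a positive log2 difference (47.3% of all genes), and the median was 0.0007, against -0.0042 over all genes. This split depended on scaling and on single arrays. Quantile-normalized again, 24 were positive (50.4% of all genes, median 0.0185), and with arrays centred on their median 25 were (56.4%, median 0.0154). Without Il1a KO replicate 1, 14 were positive (48.1%, median -0.0171), 1 gene was higher and 2 lower at an unadjusted p under 0.05 (3.14% and 3.83% of all genes), and the arrays did not overlap in 0 higher and 3 lower (4.79% and 7.35%). Leaving out WT replicate 1 as well changed none of these counts among the 35 genes. Elovl7 was the one gene that passed (2.86% of the 35, against 0.652% of all genes): it was 1.46-fold lower in the Il1a KO (log2 difference -0.55, 95% interval -0.69 to -0.40, limma adjusted p = 9.79e-04). With all arrays, 2 genes were higher (2.99% of all genes) and 2 lower (4.8%) in the Il1a KO at an unadjusted p under 0.05, and the arrays did not overlap in 0 higher (2.55%) and 2 lower (4.69%), which were Elovl7 and Klk6. Opalin differed by 0.25 (95% interval -0.01 to 0.51, limma adjusted p = 0.673). The log2 difference of Klk6 was -0.08 (limma adjusted p = 0.575), and those of Gjc3 and Anln were 0.15 and 0.10 (adjusted p = 0.614 and 0.637). The interval of Enpp6 reached -0.35 and that of Aspa 0.33, so the knockouts were not shown to be alike.

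Within each genotype the genes moved up and down with the array. Il1a KO replicate 1 was the highest of its group in 20 of 35 genes, Il1b KO replicate 3 in 18 and WT replicate 2 in 16. At the low end, Il1b KO replicate 2 had the lowest value in 18 genes, Il1b KO replicate 4 in 15, Il1a KO replicate 3 in 14, and WT replicates 3 and 1 in 14 and 13. The median deviation of the genes from their 12-array means ran from -0.0024 to 0.08 in Il1a KO and from -0.0011 to 0.08 in Il1b KO arrays, against -0.11 to -0.03 in WT arrays. By this measure no knockout array reached down to the highest WT array, replicate 2. By the plain median level of the 35 genes, Il1a KO replicate 4 (11.342) lay below WT replicate 2 (11.365). The SD within groups was widest for Opalin (0.198), Aspa (0.150) and Enpp6 (0.144) and narrowest for Trf (0.0204).

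Other genes of the oligodendrocyte lineage, listed by function, gave a like picture in sign, with small sizes. For comparison, 50.2% of all genes were positive in the Il1a KO and 52% in the Il1b KO. At an unadjusted limma p under 0.05, 4.54% and 8.42% of all genes were higher, and 3.77% and 4.58% lower. By adjusted p, 0.171% and 0.813% of all genes passed. Of 37 further myelin genes, 33 lay above WT in the Il1a KO and 34 in the Il1b KO, with medians of 0.14 and 0.09, and 0 passed the test in either (19 and 14 were higher at an unadjusted limma p under 0.05, and 0 and 1 lower). The log2 fold change of Arsg, a lysosomal sulfatase, was 0.25 in the Il1a KO (limma adjusted p = 0.185), and that of Tppp, which bundles microtubules in the sheath, 0.20 in the Il1b KO (adjusted p = 0.0987). Of 11 lineage transcription factors, 8 were positive in each knockout and 0 passed (5 higher at an unadjusted limma p under 0.05 in each). Sox8 had log2 fold changes of 0.18 in the Il1a KO and 0.20 in the Il1b KO (limma adjusted p = 0.253 and 0.0699), and Olig1, needed for maturation, 0.20 and 0.18. Of 24 genes of lipid synthesis, 18 and 19 were positive, with medians of 0.06 and 0.04, and 0 passed (2 higher at an unadjusted p in each, 0 and 2 lower).

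Most precursor genes were on the same side. Of 14, 10 were positive in the Il1a KO and 13 in the Il1b KO, with medians of 0.08 and 0.12. By limma 0 passed in either, and 4 and 8 were higher at an unadjusted p under 0.05 (4.54% and 8.42% of all genes). Pdgfra, Vcan, Pcdh15 and Sox6 had means below WT in the Il1a KO, and Vcan also in the Il1b KO. Pdgfra averaged 9.96 in the Il1a KO and 10.15 in the Il1b KO, against 10.01 in WT. C1ql1, a secreted protein of precursors, was at 9.43 to 9.62 in Il1a KO and 9.42 to 9.67 in Il1b KO arrays, against 9.24 to 9.33 in WT arrays (log2 fold changes 0.19 and 0.25, limma adjusted p = 0.311 and 0.0633). Gpr17, a receptor of cells leaving the precursor stage, was at 8.03 to 8.59 and 8.27 to 8.73, against 7.86 to 8.23 in WT (log2 fold changes 0.23 and 0.48, adjusted p = 0.687 and 0.122).

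Markers of other cells moved alongside, and their part in the values above was not tested. Neutrophil markers were below WT in 12 of 13 genes in the Il1a KO and 10 of 13 in the Il1b KO, with medians of -0.35 and -0.25. Of these Ly6g, a surface marker of mouse neutrophils, passed in the Il1b KO, where it fell to 5.96 to 6.28, against 6.58 to 6.79 in WT (log2 fold change -0.55, limma adjusted p = 0.00869). Its log2 fold change in the Il1a KO was -0.45 (limma adjusted p = 0.098). Ly6g was dim, with a mean of 6.38 over all 12 arrays. S100a9, Retnlg and Stfa2 had means above WT in the Il1b KO (S100a9 8.54 against 8.46), and S100a8 was close to WT (8.46 against 8.55). The summed neutrophil level ran from 11.09 to 11.43 log2 units in Il1a KO and 10.90 to 11.68 in Il1b KO arrays, against 11.44 to 11.80 in WT arrays. All 12 skeletal muscle genes were below WT in both knockouts (medians -0.16 and -0.18). By limma 0 passed, and 5 were lower at an unadjusted p under 0.05 in each (3.77% and 4.58% of all genes). Their summed level ran from 11.41 to 11.49 in Il1a KO and 11.41 to 11.54 in Il1b KO arrays, against 11.52 to 11.72 in WT arrays. Pvalb, with a mean of 10.31 over all 12 arrays, weighs most in this sum. The other muscle genes were dim, with means from 6.00 for Myh1 to 7.97 for Acta1, so the sum is no clear measure of muscle.

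None of the remaining lists except that of pericytes and fibroblasts held a gene that passed against WT. Between the knockouts, Gpr34, a microglial receptor, passed, at 5.98 to 6.12 in Il1a KO arrays, against 5.69 to 5.74 in Il1b KO arrays (log2 difference 0.31, limma adjusted p = 0.0299). Median log2 fold changes in the Il1a KO and the Il1b KO were 0.04 and 0.04 for 18 neuronal genes, 0.03 and 0.04 for 12 astrocyte genes, -0.04 and -0.06 for 9 microglial genes, and -0.12 and 0.0011 for 9 monocyte and macrophage genes. They were -0.02 and 0.01 for 9 endothelial genes, -0.06 and 0.07 for 10 genes of fibroblasts and pericytes, and -0.27 and -0.22 for 2 erythroid genes. The 2 genes of pericytes that passed did so in the Il1b KO. Rgs5, a regulator of G protein signalling, rose to 9.18 to 9.30, against 9.0031 to 9.0654 in WT (log2 fold change 0.22, limma adjusted p = 0.033). Abcc9, a subunit of potassium channels, rose to 8.72 to 8.79, against 8.50 to 8.58 in WT (log2 fold change 0.20, limma adjusted p = 0.0187).

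Schwann cells, which make peripheral myelin, use Mbp, Mag and Cnp too. Of 8 measured Schwann cell markers, 7 had a positive log2 fold change in the Il1a KO and 6 in the Il1b KO, with medians of 0.10 in each. By limma 0 passed, and 1 was higher at an unadjusted p under 0.05 in each (4.54% and 8.42% of all genes). Their summed level ran from 13.45 to 13.70 log2 units in Il1a KO and from 13.55 to 13.65 in Il1b KO arrays, against 13.37 to 13.52 in WT arrays. The part of Schwann cells in the myelin values was not tested.

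**Figure D5:**
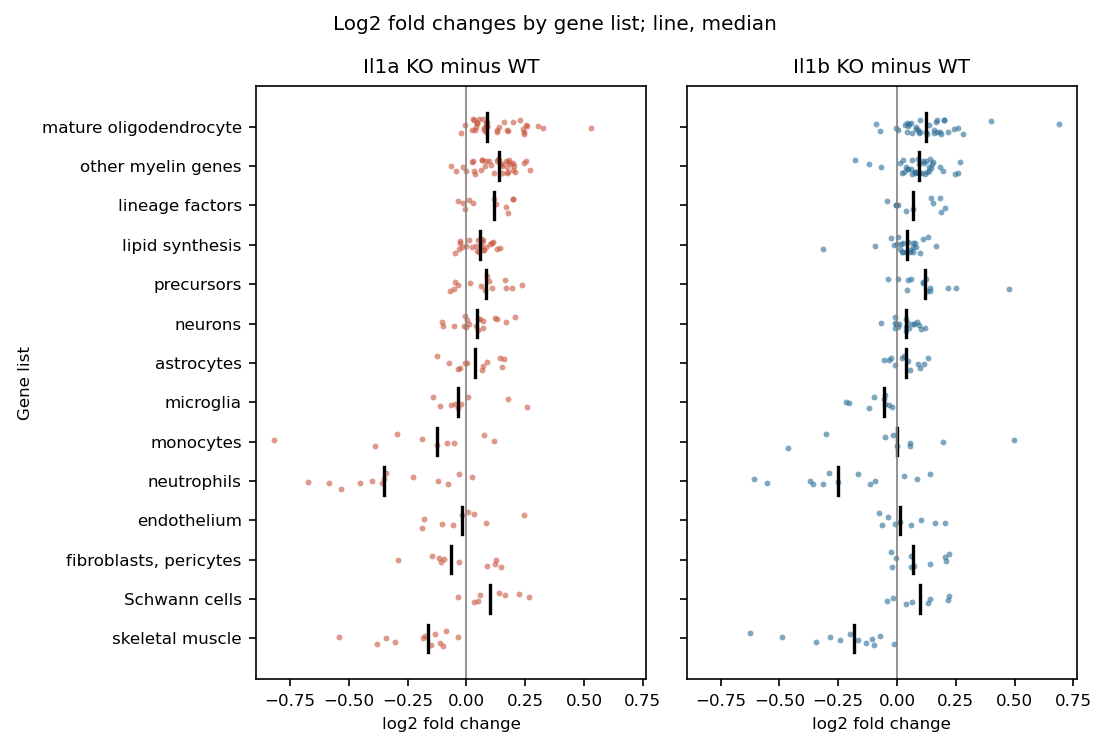
Log2 fold change against WT (horizontal axis) of every gene in 14 lists (vertical axis), in the Il1a KO (left) and the Il1b KO (right); black lines are medians. The lists of the oligodendrocyte lineage lie right of 0 (medians 0.04 to 0.14), as do Schwann cell (0.10 and 0.10), neuronal (0.04 and 0.04) and astrocyte genes (0.03 and 0.04), while neutrophil (-0.35 and -0.25) and skeletal muscle genes (-0.16 and -0.18) lie left of it.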

How the data were processed

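The authors' deposited log2 values, 1 per probe set and array, were used as they stand. Tools listed in the submitters' processing notes were GCOS 1.4, RMA, limma and Partek, without their roles. The values were taken as RMA summaries because of that list and of array medians between 7.67 and 7.72. Such values are relative to each array, so an overall change in RNA amount would not show. No genome build of the annotation is stated in the labels.

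Of 35557 probe sets, 21789 had 1 symbol, giving 19938 genes at their brightest probe set, of which 19856 took RefSeq names (GRCm38.p6) through Entrez identifiers. Group means over all 12 arrays were tested (limma 3.58.1 under R 4.3.3, no trend, two-sided), with Benjamini-Hochberg adjustment over all genes in each comparison and a threshold of 0.05. The procedure was tested on simulated data. The number of arrays limits the precision. Differences are knockout minus WT, or Il1a KO minus Il1b KO. The members, gene lists and tests were chosen with earlier results of these data known. Values of all 12 arrays were given for genes that passed, for the 3 largest and 3 smallest log2 fold changes in each knockout, and for the 3 widest SDs within groups. The other genes were described by role, and Klk6, Mog, Pllp and others were picked out after their values were seen. From other lists, genes that passed and those with the lowest p-values were named. Alternatives covered the choice of probe set, scaling, dim genes, variance model, array weights, the groups fitted, the replicate number as a block, and each array left out.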

Additional observations from a re-analysis of the deposited data

Results flagged for a closer look

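Elovl7 differed between the knockouts themselves, with a log2 difference of -0.55 (Il1a KO minus Il1b KO, limma adjusted p = 9.79e-04), and all 4 Il1a KO arrays (10.36 to 10.57) lay below all 4 Il1b KO arrays (10.89 to 11.14).

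Of 105 sets of 4 arrays (35 genes in 3 groups), 3 held an array farther from the other 3 than Dixon's 95% limit allows, which chance gives in about 1 set in 20. Mal was at 11.58 in Il1b KO replicate 4, with the other arrays of the group at 11.64. Cldn11 was at 12.80 in the same array, with the others at 12.84 to 12.85. Nkx6-2 was at 9.66 in Il1a KO replicate 2, with the others at 9.56 to 9.58. The cause was not tested.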

How the results depend on the processing

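Elovl7 passed in the Il1b KO and between the knockouts under every alternative run, with log2 values of 0.64 to 0.73 and -0.59 to -0.50. Genes of the group that passed in the Il1a KO numbered 1 (variance trend with robust fit) and 5 (array weights), against 0 as reported. In the Il1b KO they numbered 2 (dimmest genes left out, or only the groups compared), 4 (trend and robust fit) and 8 (array weights), against 1. Leaving out single arrays gave 0 to 1 in the Il1a KO (Tmem125 without WT replicate 1, Aspa without WT replicate 2) and 1 to 2 in the Il1b KO (Car2 added without WT replicate 2, Enpp6 without Il1a KO replicate 1). Without Il1a KO replicate 1 and WT replicate 1 together, chosen after seeing the data, 2 passed in the Il1b KO, against 139 of all 19938 genes. Over all genes 34 passed in the Il1a KO, against 66 (each probe set alone), 74 (trend and robust fit), 306 (array weights) and 15 (only the groups compared). In the Il1b KO 162 passed, against 309, 1145 and 85 in the last 3 of these, and between the knockouts 130, against 244 with array weights. Single arrays left out gave 18 (WT replicate 4) to 49 in the Il1a KO, with 19 without Il1a KO replicate 3 or 4, and 106 (WT replicate 4) to 177 in the Il1b KO, with 107 without Il1b KO replicate 1. The median log2 fold change in the Il1a KO was 0.14 without the 12 members that other cord cells also express, against 0.09. The causes were not tested, beyond fewer genes or arrays where a setting removes them. Same-numbered arrays correlated at -0.374 to 0.441, which with 4 arrays per group cannot settle whether numbers pair them. Il1b KO replicate 3 correlated at 0.441 with WT replicate 3, against at most 0.296 with other WT arrays. Il1b KO replicate 2 correlated at -0.374 with WT replicate 2, against up to 0.568 with others. With the number as a block, 0, 1 and 1 genes of the group passed in the Il1a KO, the Il1b KO and between them, as without it, and 26, 120 and 105 of all genes.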
